A study of Mus musculus with 20 samples.

Results

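The genes described here make up the MHC class II antigen presentation machinery: the class II chains H2-Aa, H2-Ab1 and H2-Eb1, the invariant chain Cd74, the peptide editor subunits H2-DMa and H2-DMb1, and the transactivator Ciita. They were taken by gene name from a table of 54532 gene entries, in which each of these 7 names occurred, and followed through 20 mouse liver libraries. Wild-type mice and mice lacking STING, the adaptor of cytosolic DNA sensing, had undergone 7 days of bile duct ligation (BDL), which blocks bile flow, or sham surgery, and each of the 4 groups (Sham_Wt, Sham_KO, BDL_Wt and BDL_KO) held 5 libraries of polyadenylated whole-liver RNA. The labels name neither the strain and age of the mice, nor the deleted stretch of the STING gene, nor whether each library came from its own animal. Wild-type libraries are numbered from Sham_Wt_2223 to BDL_Wt_2240 and knockout ones from Sham_KO_2347 to BDL_KO_2371, apart from BDL_KO_2248. What the numbers stand for is not given, and a difference that follows them cannot be told apart from genotype. The p-values here set differences between groups against the spread between libraries, which in the main fit is shared by all 4 groups. By Xist and Y-linked transcripts, every group mixed both sexes, with 2 or 3 libraries of each.

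MHC class II molecules are pairs of an alpha and a beta chain that carry peptides from endosomes to the cell surface, where CD4+ T cells read them. H2-Aa and H2-Ab1 encode the alpha and beta chains of I-A, and H2-Eb1 encodes the beta chain of I-E. Cd74 occupies the groove of new class II molecules and escorts them to endosomes, where proteases cut it down to a short peptide that the H2-DM heterodimer exchanges for antigen. CIITA does not bind DNA itself but is recruited by RFX, CREB and NF-Y proteins sitting on the X and Y boxes of class II promoters. In the liver, Kupffer cells, recruited macrophages, dendritic cells and B cells are the usual bearers of class II, and interferon gamma can induce it in further cell types through Ciita.

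The H2 members lie together on mouse chromosome 17 (build GRCm38, GENCODE M21 genes): H2-DMa at chr17:34119541-34139101, H2-DMb1 at chr17:34153072-34160230, H2-Ab1 at chr17:34257689-34269419 and H2-Eb1 at chr17:34305867-34316674 on the plus strand, and H2-Aa at chr17:34282744-34287823 on the minus strand. Ciita lies apart, at chr16:10480059-10528418 on the plus strand. The promoters of H2-Aa and H2-Eb1 are shown because they hold the letters of the boxes on which RFX, CREB and NF-Y proteins sit, and H2-Ob, the beta chain of the H2-DM inhibitor H2-O, is shown as a further gene of the same locus. Each stretch runs from 120 to 21 bases before the RefSeq start (GRCm38.p6), read 5′ to 3′ on the gene's strand, at chr17:34287844-34287943 (minus) for H2-Aa, chr17:34305747-34305846 (plus) for H2-Eb1 and chr17:34238785-34238884 (plus) for H2-Ob, and the capitals mark, in order, GNAAC as the core of the X1 box, TGANG as that of the X2 box and TGATTGG as that of the Y box.
H2-Aa: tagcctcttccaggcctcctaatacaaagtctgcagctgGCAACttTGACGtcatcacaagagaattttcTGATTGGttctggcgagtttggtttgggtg
H2-Eb1: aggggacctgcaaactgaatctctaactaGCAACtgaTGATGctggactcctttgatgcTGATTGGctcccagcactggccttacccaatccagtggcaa
H2-Ob: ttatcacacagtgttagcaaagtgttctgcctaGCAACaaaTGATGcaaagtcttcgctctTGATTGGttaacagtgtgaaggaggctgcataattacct

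The letters between the X and Y cores differ, but their spacing is close: 19 bases separate the X2 core from the Y core in H2-Aa, 17 in H2-Eb1, 15 in H2-Ob and 18 in H2-DMb1, whose sequence is not printed. The X1 and X2 cores are 2 bases apart in H2-Aa and 3 bases apart in the other 3. In H2-Eb2, counted below, 0 bases separate X1 from X2 and 20 separate X2 from Y. Its Y core begins 102 bases before the start, against 50 to 63 in these genes. With up to 6 bases allowed between these and 10 to 25 between the X2 and Y cores, on either strand, the arrangement was found in 12 of 32851 promoter windows of 300 bases, a share of 0.0365%, and 5 of the 12 were class II genes (H2-Aa, H2-Eb1, H2-DMb1, H2-Eb2 and H2-Ob). The Y core alone, on either strand, was found in 7.82% of windows. Neither the Y core nor the arrangement was found in the 2 windows listed for H2-DMa. The windows of H2-Oa and H2-DMb2 held the Y core but not the arrangement. The motif and its spacing limits were chosen after the letters were seen, and a match is a description of the sequence.

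Members are given in FPKM, fragments scaled by exon length and library total, so an order of levels between genes depends on the exon lengths used. The libraries held about 14900000 to 20900000 assigned fragments, as recovered from the whole-number steps of the low values. The members spanned a wide range: the fragments behind Cd74 numbered 516.8 to 5550 per library and those behind Ciita 6 to 177, so counting error weighs most on Ciita. Tmem173, the gene of STING, measured 0.843 to 2.34 FPKM in Sham_Wt, 2.60 to 4.61 in BDL_Wt, 0.588 to 1.06 in Sham_KO and 0.638 to 2.57 in BDL_KO, so a transcript was still counted in the knockout and the sham ranges overlapped. BDL_KO_2359 and BDL_KO_2248 stood apart from the other BDL_KO libraries in the members and in cell type markers (values below), and results are therefore given with and without them. Since they were singled out by these low values, every comparison of BDL_KO without them describes the remaining 3 libraries and is no independent test. The same choice makes the wild-type errors of the members smaller in that fit, so wild-type calls of members there are no independent test either. The Tmem173 values of BDL_KO_2359 and BDL_KO_2248, 0.841 and 0.638 FPKM, were within the knockout sham range.

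Ligation of the bile duct was followed by higher class II levels in most livers of both genotypes, and by far lower levels in 2 of the 5 knockout livers. In BDL_Wt the median of Cd74 was 136.4 FPKM against 79.9 in Sham_Wt, and in BDL_KO 3 libraries lay at 148.1 to 178.1 while BDL_KO_2359 and BDL_KO_2248 lay at 22.9 and 22.6. No member passed the test (adjusted p under 0.05) in any comparison of the 20 libraries. Without those 2 libraries the wild-type difference was the same with a smaller error, and 6 of the 7 members were called higher there, among 21.5% of all genes called higher, the exception being H2-Ab1. Ciita, 1 of the 6, was tested only because of its ligated livers.

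The chains of I-A gave the clearest view of this split. H2-Aa measured 21.9, 21.3, 28.7, 23.0 and 13.9 FPKM in Sham_Wt, 27.6, 22.0, 19.7, 26.1 and 18.3 in Sham_KO, 32.7, 20.2, 36.1, 31.3 and 39.1 in BDL_Wt, and 4.20, 43.8, 4.04, 36.4 and 35.7 in BDL_KO. The sham groups overlapped fully, 4 of the 5 BDL_Wt libraries lay above all sham libraries, and BDL_KO held both the highest value of the series and the lowest. H2-Ab1 measured 26.7, 22.6, 34.6, 25.2 and 14.2 FPKM in Sham_Wt, 29.4, 26.1, 21.2, 34.2 and 20.2 in Sham_KO, 36.5, 21.5, 34.9, 38.2 and 46.1 in BDL_Wt, and 5.66, 44.4, 3.86, 38.2 and 35.0 in BDL_KO. The same BDL_Wt library, BDL_Wt_2235, was the lowest of its group for both chains, and the same BDL_KO libraries fell below every sham library.

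H2-Eb1, the I-E beta chain, had the highest FPKM of the 3 class II chains in all 20 libraries. That order depends on the exon lengths used for scaling, 1944 bases for H2-Eb1 and 3798 for H2-Aa. In fragments before scaling, H2-Eb1 stayed below H2-Aa in every library, such as 852 against 1271 in Sham_Wt_2223. It measured 28.6, 30.4, 43.9, 31.8 and 21.3 FPKM in Sham_Wt, 39.0, 31.4, 26.7, 35.0 and 23.8 in Sham_KO, 41.0, 29.8, 49.9, 47.2 and 52.8 in BDL_Wt, and 6.76, 62.2, 4.53, 46.9 and 46.7 in BDL_KO. BDL_Wt overlapped Sham_Wt through BDL_Wt_2235 and BDL_Wt_2233, and the BDL_KO values fell into a high and a low cluster with no library between them. The alpha chain partner of I-E is a pseudogene in the strain of the reference genome, and its entry, H2-Ea-ps, was listed at 0 in all 20 libraries.

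Cd74, the invariant chain, lies at chr18:60803848-60812652 on the plus strand and was the most abundant member in all 20 libraries. It measured 79.9, 72.6, 113.6, 86.0 and 49.3 FPKM in Sham_Wt, 95.4, 83.3, 82.0, 101.9 and 83.5 in Sham_KO, 135.4, 87.4, 136.4, 152.0 and 146.7 in BDL_Wt, and 22.9, 178.1, 22.6, 153.1 and 148.1 in BDL_KO. BDL_Wt_2235 was again the lowest of its group, overlapping Sham_Wt, and the other 4 exceeded every sham library. The order of levels over the members, Cd74 over the class II chains, the chains over H2-DM and H2-DM over Ciita, held in every library and so also in the low ones.

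The H2-DM subunits were expressed at a lower level than the chains they serve. H2-DMa measured 3.14, 3.51, 5.08, 4.47 and 3.56 FPKM in Sham_Wt, 3.60, 2.25, 3.50, 4.18 and 2.54 in Sham_KO, 6.60, 4.45, 7.14, 8.39 and 8.14 in BDL_Wt, and 1.71, 6.80, 1.30, 5.94 and 7.07 in BDL_KO. H2-DMb1 measured 2.95, 3.88, 6.46, 4.18 and 3.43 FPKM in Sham_Wt, 3.10, 2.87, 2.65, 4.79 and 1.97 in Sham_KO, 6.58, 4.07, 7.67, 10.2 and 7.95 in BDL_Wt, and 2.11, 7.84, 1.04, 10.7 and 7.67 in BDL_KO. For both subunits the ligated wild-type group overlapped its sham group through BDL_Wt_2235, and the 3 higher BDL_KO libraries lay above all Sham_KO libraries. H2-DMb1 has a near copy, H2-DMb2, which measured at most 0.914 FPKM, and reads shared by the copies could have been split between them by the authors' counting. H2-DMb1 in BDL_KO_2359, at 2.11 FPKM, was the 1 value of that library that stayed above the lowest of the other libraries, Sham_KO_2353 at 1.97.

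Ciita, the transactivator on which the constitutive and the induced expression of class II depend, was the least abundant member. It measured 0.295, 0.365, 0.387, 0.238 and 0.189 FPKM in Sham_Wt, 0.257, 0.283, 0.196, 0.320 and 0.222 in Sham_KO, 0.475, 0.424, 0.867, 0.807 and 0.765 in BDL_Wt, and 0.0910, 0.712, 0.0462, 0.706 and 0.713 in BDL_KO. The BDL_Wt and Sham_Wt groups did not overlap, and the 3 higher BDL_KO libraries lay between 0.706 and 0.713. BDL_KO_2359 and BDL_KO_2248 rested on 13 and 6 fragments. All other members exceeded 0.5 FPKM in all 20 libraries, the minimum for being tested being 0.5 FPKM in 5 libraries, whereas Ciita reached it in 6 libraries, 3 of BDL_Wt and 3 of BDL_KO, and was thus tested because of its ligated livers.

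**Figure D1:**
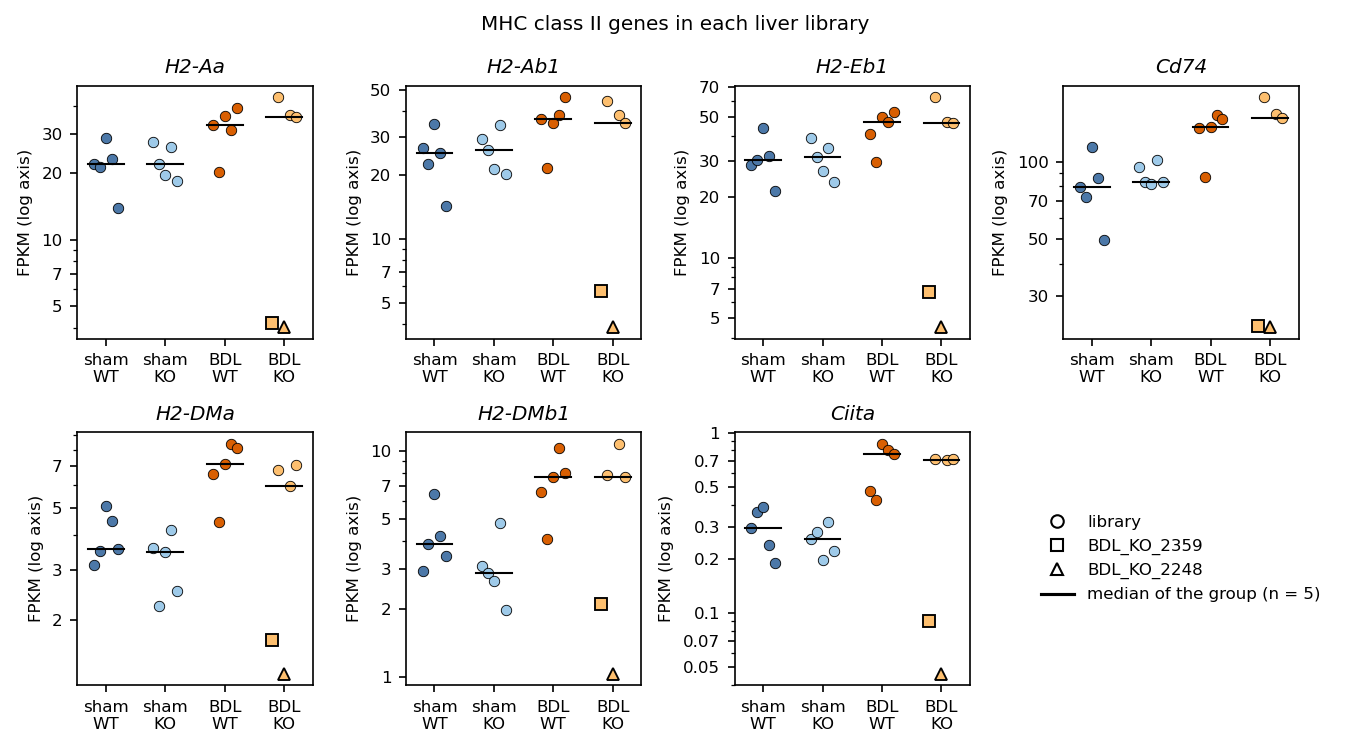
Level of each MHC class II gene in FPKM (log axis) in the 20 libraries, by group: sham or BDL surgery, wild type (WT) or STING knockout (KO). Each point is a library and each line the median of 5; the square and the triangle, BDL_KO_2359 and BDL_KO_2248, lie at 22.9 and 22.6 FPKM for Cd74 while the other 3 BDL_KO libraries lie at 148.1 to 178.1.

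In wild-type liver, ligation left all 7 members with higher group means, by 0.50 to 0.73 on the log2(FPKM + 0.5) scale, but none passed the limma test across 14059 genes, adjusted by Benjamini-Hochberg (2 of 7 had an unadjusted p under 0.05). In that comparison 35.6% of all tested genes were called. The difference for Ciita was 0.54 ± 0.21 (SE, adjusted p = 0.0548), for H2-DMa 0.73 ± 0.34 (adjusted p = 0.0999) and for Cd74 0.73 ± 0.48 (adjusted p = 0.251). The median over the members was 0.54, beside -0.02 over all genes tested. The spread behind these standard errors was estimated from all 4 groups, including the scattered BDL_KO group. With only the 2 wild-type groups in the model, 4 members were called higher, Cd74, H2-DMa, H2-DMb1 and Ciita, among 22.0% of all genes called higher in that model.

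In knockout liver the group means moved apart in no common direction, and no member passed, with 25.1% of all genes called. Differences ran from -0.58 ± 0.51 for H2-Ab1 (adjusted p = 0.441) to 0.52 ± 0.42 for H2-DMb1 (adjusted p = 0.389), with a median of -0.28 beside -0.01 over all genes, and no member had an unadjusted p under 0.05. These means describe no single library of the group, since for the class II chains and Cd74 3 libraries lay above the Sham_KO range and 2 below it.

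Without BDL_KO_2359 and BDL_KO_2248, an alternative fitted in the same way over 18 libraries, the wild-type differences were the same and their errors smaller, since the scatter of these 2 libraries no longer entered the shared spread. The p-values of the members in wild type thus also rest on a choice made from the members' own values. In wild type Cd74 rose by 0.73 ± 0.18 (adjusted p = 0.00353), H2-DMa by 0.73 ± 0.17 (adjusted p = 0.00228), Ciita by 0.54 ± 0.12 (adjusted p = 0.00201) and H2-Aa by 0.54 ± 0.19 (adjusted p = 0.0261), whereas H2-Ab1, at 0.53 ± 0.22, did not pass (adjusted p = 0.0621). For knockout, the libraries left out were the 2 lowest in nearly all members, so what remains is higher in part by that choice, and the differences of the other 3 from Sham_KO are given as a description with no call. They were 1.40 ± 0.27 for H2-DMb1, 0.96 ± 0.20 for H2-DMa, 0.84 ± 0.21 for Cd74 and 0.59 ± 0.25 for H2-Ab1 (log2 scale, ± SE), beside 0.52 ± 0.42 for H2-DMb1 with all 5.

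STING genotype made no called difference for any member. After sham surgery, 0 of 7 were called by limma (2.97% of all genes) and 0 had an unadjusted p under 0.05, with differences of knockout minus wild type from -0.39 ± 0.42 for H2-DMb1 to 0.20 ± 0.48 for Cd74. After ligation 0 of 7 were called (8.83% of all genes) and 1, H2-DMa, had an unadjusted p under 0.05, at -0.77 ± 0.34 (adjusted p = 0.159). All 7 means were lower in the ligated knockout, by a median of -0.81 beside 0.01 over all genes. Without the 2 libraries the median became 0.25, 6 of 7 differences were positive and 0 were called (6.60% of all genes) or had an unadjusted p under 0.05, again after a choice that raised the knockout means. The 95% confidence interval for Cd74 then ran from -0.14 to 0.74, that for H2-Aa from -0.15 to 0.75 and that for H2-DMa from -0.46 to 0.37, so differences of that size in either direction were not resolved.

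The response to ligation was also compared between genotypes directly. The interaction was called for 0 of 7 members (0.377% of all genes) and ranged from -1.11 ± 0.73 for H2-Ab1 to -0.20 ± 0.59 for H2-DMb1, with no unadjusted p under 0.05. Without the 2 libraries it was again called for 0 of 7 (1.27% of all genes), and all 7 values turned positive, from 0.07 ± 0.33 for H2-Ab1 to 0.67 ± 0.35 for H2-DMb1, a sign that the choice of libraries favours.

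**Figure D2:**
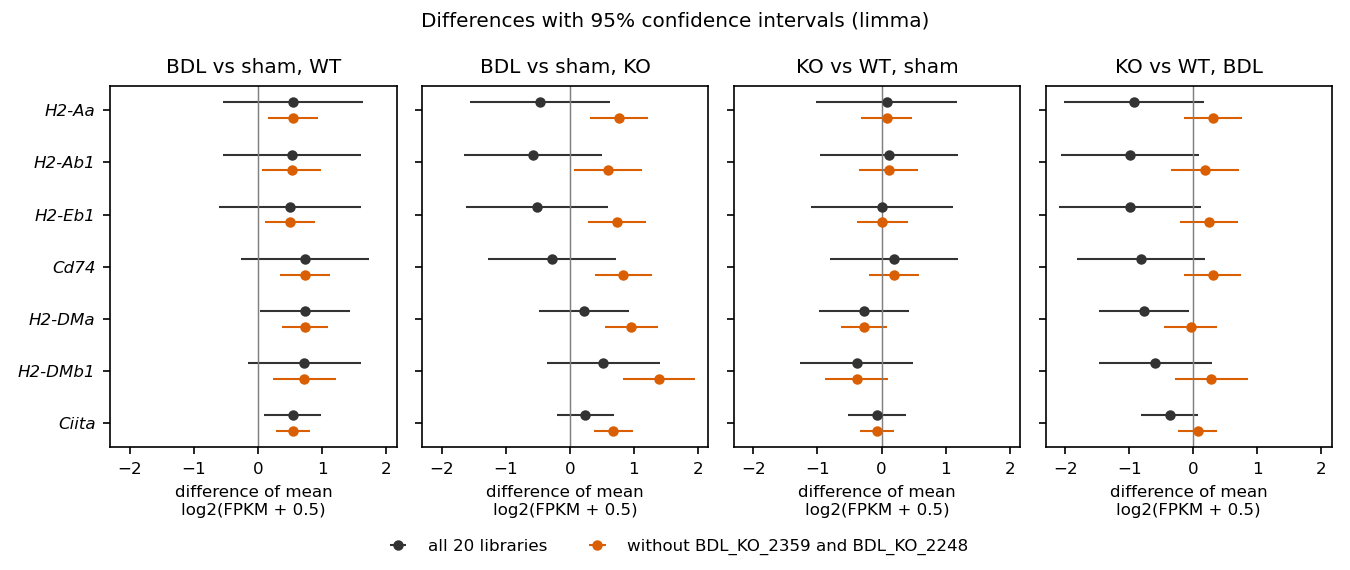
Differences of group means in log2(FPKM + 0.5), with 95% confidence intervals from limma, for the 7 members in 4 comparisons; black uses all 20 libraries and orange leaves out BDL_KO_2359 and BDL_KO_2248. The wild-type estimates coincide and only their intervals shrink (Cd74 0.73 in both), while the knockout estimates change sign for 4 members, Cd74 from -0.28 to 0.84.

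The 2 low libraries were low in nearly the entire machinery. BDL_KO_2248 lay below all other 18 libraries in 7 of 7 members and BDL_KO_2359 in 6 of 7. Against the lowest of the other 3 BDL_KO libraries, H2-Aa was 8.50 and 8.84 times lower in BDL_KO_2359 and BDL_KO_2248, H2-Eb1 6.90 and 10.3 times, Cd74 6.48 and 6.55 times, and H2-DMa 3.48 and 4.58 times. Ciita was 7.77 and 15.3 times lower, on few fragments.

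The members followed each other closely from library to library. Over 20 libraries the 21 pairwise Pearson correlations of log2(FPKM + 0.5) ran from 0.799 to 0.992 (median 0.866), and over the 18 without BDL_KO_2359 and BDL_KO_2248 from 0.752 to 0.981 (median 0.866). All of these libraries share their cell mixtures across genes, so the values describe the pattern only. Ratios within a library were tested by exact two-sided permutation, as log2(FPKM + 0.5) of H2-Ab1 minus that of a partner, in 30 tests (6 partners, 5 contrasts), and 0 passed after Benjamini-Hochberg adjustment over the 30. H2-Ab1 over H2-Aa, the beta over the alpha chain of I-A, was 0.16 ± 0.11 in Sham_Wt, 0.19 ± 0.12 in Sham_KO, 0.14 ± 0.13 in BDL_Wt and 0.08 ± 0.18 in BDL_KO (SD, n = 5 each), and BDL_KO_2359 and BDL_KO_2248, at 0.391 and -0.058, lay at or just outside the edges of the sham range of 0.031 to 0.385, so alpha and beta chain were low together. As plain ratios of FPKM, H2-Ab1 over H2-DMa was 3.32 and 2.97 in these 2 libraries, against 4.00 to 11.6 in the other 18, so the chain was low also relative to H2-DMa. H2-Ab1 over Ciita was 62.3 and 83.5, within the 40.3 to 114.4 of the other 18.

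Genes beside the members were read from lists of the pathway. Of the further class II genes only H2-DMb2 was tested, and it was called in no comparison of the 20 libraries. H2-Oa and H2-Ob, the subunits of the H2-DM inhibitor that B cells and some dendritic cells express, measured at most 0.451 and 0.472 FPKM, and H2-Eb2 at most 0.163.

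Proteases and helpers that prepare peptides in the endosome rose after ligation in both genotypes, 5 of 10 in wild type and 5 of 10 in knockout, with none lower (medians 0.52 and 0.52, beside -0.02 and -0.01 over all genes). Of all genes, 18.1% were called higher in wild-type and 12.3% in knockout ligation. Ctss, cathepsin S, which makes the last cuts in the invariant chain, measured 36.4 to 65.4 FPKM in Sham_Wt and 95.5 to 139.7 in BDL_Wt, groups that did not overlap, and rose by 1.32 ± 0.27 (adjusted p = 0.000812). Ifi30, the lysosomal thiol reductase GILT, rose by 1.27 ± 0.26 (adjusted p = 0.00102), Lgmn, the asparagine endopeptidase legumain, by 1.20 ± 0.21 (adjusted p = 0.000258) and Ctsd, cathepsin D, by 0.57 ± 0.11 (adjusted p = 0.000485).

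In knockout, Lgmn rose by 1.08 ± 0.21 (adjusted p = 0.00133), Ctss by 0.96 ± 0.27 (adjusted p = 0.0137) and Ctsl, cathepsin L, by 0.94 ± 0.25 (adjusted p = 0.00964). Ctsl rose by 0.43 ± 0.13 (adjusted p = 0.0143) without the 2 low libraries, and the list then had 7 of 10 higher in each genotype, among 21.5% and 18.8% of all genes. In wild type 1, Ctsh, was then called lower, beside 20.7% of all genes. Ctss was lower in ligated knockout than in ligated wild-type liver, by -1.14 ± 0.27 (adjusted p = 0.0122) over all libraries and by -0.59 ± 0.17 (adjusted p = 0.0483) without the 2. Lgmn was also lower there, by -0.72 ± 0.21 (adjusted p = 0.0409), so 2 of 10 were called lower, beside 5.37% of all genes. The Lgmn call was lost when any of 8 single libraries was left out, and without the 2 (adjusted p = 0.275). BDL_KO_2359 and BDL_KO_2248 measured 27.3 and 36.3 FPKM for Ctss and 24.7 and 16.5 for Ifi30, within or near the Sham_KO ranges of 25.6 to 37.8 and 13.4 to 24.0, whereas their class II chains lay far below sham. Ctsl went the other way. Both libraries were above the 115.6 to 118.5 FPKM of the other BDL_KO libraries, with the higher at 376.7, against 81.5 to 91.5 in Sham_KO. The rise of Ctsl over all libraries thus rests largely on them.

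Few of the factors that sit on class II promoters were called. In wild-type ligation 1 of 11 rose and 2 fell, a smaller share than the 35.6% of all genes called in either direction (median -0.12): Rfx5, the DNA-binding subunit of RFX, rose by 0.64 ± 0.17 (adjusted p = 0.00623), Nfyb, a subunit of NF-Y, changed by -0.78 ± 0.10 (adjusted p = 1.55e-05) and Rfxap, the RFX-associated protein, by -0.75 ± 0.14 (adjusted p = 0.000476). In knockout ligation only Rfxank, the remaining RFX subunit, passed, at -0.70 ± 0.15 (adjusted p = 0.00293; median of the list -0.06), beside 25.1% of all genes. Without the 2 low libraries 2 rose and 3 fell in wild type (21.5% and 20.7% of all genes), and in knockout 4 fell (Atf1, Nfyc, Rfxank and Rfxap) among 18.2% of all genes called lower. Between genotypes, Nfyb was called lower in sham knockout, by -0.46 ± 0.10 (adjusted p = 0.0199), beside 1.66% of all genes. Its interaction was also called, at 0.69 ± 0.14 (adjusted p = 0.0397), beside 0.377% of all genes. The sham call was lost with either of 2 single libraries left out and the interaction with any of 16. Rfx5 measured 2.61 to 2.98 FPKM in BDL_Wt and 1.44 to 1.85 in BDL_KO. BDL_KO_2359 and BDL_KO_2248, at 1.44 and 1.59, were the lowest of that group, just below the 1.63 to 1.85 of the others. In ligated knockout Rfx5 was called lower than in ligated wild type, by -0.61 ± 0.17 (adjusted p = 0.0297), beside 5.37% of all genes. That call was lost when any of 5 single libraries was left out, and without the 2 low libraries (adjusted p = 0.113).

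Most tested genes listed for the interferon gamma axis and the induction of Ciita rose with ligation in wild type. In wild-type ligation 8 of the 9 tested genes reported here rose (median 0.87), beside 18.1% of all genes, among them Spi1, the myeloid factor PU.1 (1.14 ± 0.28, adjusted p = 0.00383), the receptor chains Ifngr1 (1.12 ± 0.16, adjusted p = 3.32e-05) and Ifngr2 (0.97 ± 0.19, adjusted p = 0.000604) and Irf8 (0.92 ± 0.20, adjusted p = 0.00139). In knockout ligation 3 of 9 rose, beside 12.3% of all genes (median 0.29; 6 of 9, beside 18.8%, without the 2 low libraries). Ifng itself measured at most 0.128 FPKM in any library, with means of 0.0530 in Sham_Wt and 0.00909 in BDL_Wt, and was not tested. Whether interferon gamma signalling changed was not tested.

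Between ligated knockout and ligated wild-type liver 6 of the 9 were lower, among 5.37% of all genes called lower (median -0.72, beside 0.01 over all genes), and 1 of 9, Socs1, was lower without the 2 low libraries (3.36% of all genes). Socs1, the feedback inhibitor of JAK signalling, measured 0.514 to 2.04 FPKM in BDL_Wt and 0.115 to 0.404 in BDL_KO. These groups did not overlap, and Socs1 was lower by -1.21 ± 0.22 (adjusted p = 0.00185), or -1.15 ± 0.25 (adjusted p = 0.0107) without the 2 libraries. BDL_KO_2359 and BDL_KO_2248, at 0.115 and 0.404 FPKM, were the lowest and the highest BDL_KO libraries for Socs1, while both were low in class II. The other 3 BDL_KO libraries had H2-Ab1 at 35.0 to 44.4 FPKM, within the BDL_Wt range of 21.5 to 46.1.

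Several genes of class I presentation, the other branch, were called lower in knockout liver, among them the heavy chain H2-D1 after sham surgery and after ligation. The heavy chain H2-K1 and the partner B2m were not called between genotypes in the fit of 20 libraries. H2-K1 measured 556.5 to 780.2 FPKM in Sham_KO and 791.4 to 1086 in Sham_Wt, without overlap, and was called lower in sham knockout without the 2 low libraries. The difference of these genes from the class II members was not tested. In sham knockout liver 6 of 9 were lower than in wild type, among 1.66% of all genes called lower (median -0.80, beside 0.01 over all genes). Of these calls, that of Tap1 was lost when any of 13 single libraries was left out, that of Psmb9 with any of 12 and that of Psmb8 with any of 7. In ligated knockout 7 of 9 were lower, among 5.37% of all genes (median -0.87), or 2 of 9, Tap1 and Nlrc5, without the 2 low libraries. Nlrc5, the relative of Ciita that activates class I genes, was lower by -0.96 ± 0.14 in sham (adjusted p = 0.00177) and by -0.87 ± 0.14 in ligated liver (adjusted p = 0.000563). Tap1, a chain of the peptide transporter, was lower in ligated knockout by -1.83 ± 0.25 (adjusted p = 0.000130). H2-K1 measured 577.0 to 710.4 FPKM in BDL_KO, with BDL_KO_2359 and BDL_KO_2248 at 701.3 and 710.4, the highest of that group. H2-Ab1 over H2-K1 differed by 1.00 between BDL_Wt and Sham_Wt and by 0.59 between Sham_KO and Sham_Wt, each with a raw exact permutation p = 0.00794 and an adjusted p = 0.119, and it was -6.83 and -7.35 in BDL_KO_2359 and BDL_KO_2248 against -4.17 to -3.70 in the other 3.

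**Figure D3:**
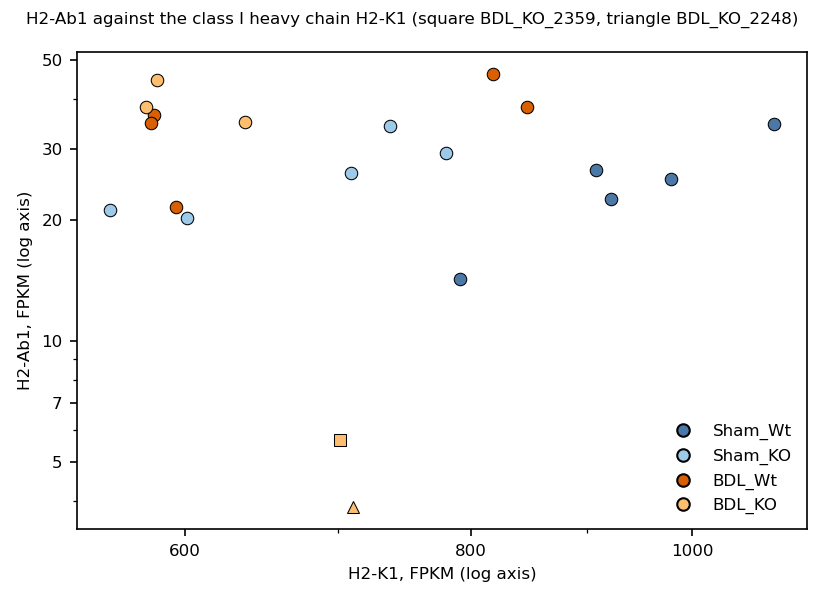
H2-Ab1 against the class I heavy chain H2-K1, both in FPKM on log axes, 1 point per library, coloured by group. BDL_KO_2359 (square) and BDL_KO_2248 (triangle) are the lowest in H2-Ab1, at 5.66 and 3.86 FPKM, but lie inside the H2-K1 range of the other groups, at 701.3 and 710.4 FPKM.

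Of the genes listed for class II turnover and costimulation, 4 of the 6 tested rose with ligation in wild type, beside 18.1% of all genes (median 0.95). Another 1, Mif, fell, beside 2467 of all 14059 genes. Cd44, which joins CD74 as a receptor for MIF, rose by 1.58 ± 0.35 (adjusted p = 0.00169), Cd83, which stabilises surface class II, by 1.04 ± 0.30 (adjusted p = 0.0117), the costimulator Cd86 by 1.00 ± 0.28 (adjusted p = 0.00884) and Cd274, the checkpoint ligand PD-L1, by 0.91 ± 0.27 (adjusted p = 0.0127). In knockout none rose, and Lag3, a class II receptor of T cells, was called lower, beside 1809 of all 14059 genes. That call was lost when any of 7 single libraries was left out. Without the 2 low libraries 3 rose (Cd44, Cd86 and Cd83), beside 18.8% of all genes. Cd274 was lower in ligated knockout by -1.98 ± 0.27 (adjusted p = 0.000110), and by -1.60 ± 0.26 (adjusted p = 0.00132) without the 2.

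Markers of cells that bear class II were read in the same libraries, and in whole liver fewer cells of a type and less RNA per cell cannot be told apart. Macrophage markers rose with ligation: 9 of 10 monocyte and recruited macrophage markers in wild type and 5 of 10 in knockout (9 of 10 without the 2 libraries), and 3 of 8 Kupffer cell markers in each genotype (6 and 7 of 8 without them). Of all genes, 18.1% and 12.3% were called higher in wild type and knockout, or 21.5% and 18.8% without the 2 libraries, and the 2 are low in these markers too. All 4 pan-leukocyte markers rose in wild type, and 1, Laptm5, in knockout (4 without the 2). The summed monocyte and macrophage markers were 61.9 to 117.0 FPKM in Sham_Wt, 78.3 to 140.2 in Sham_KO, 319.2 to 427.1 in BDL_Wt and, in BDL_KO, 116.3 and 65.8 in BDL_KO_2359 and BDL_KO_2248 and 228.2 to 375.6 in the other 3.

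Most markers of dendritic and B cells were scarce. Of 14 dendritic cell markers 6 were tested and 2 rose in wild-type ligation, beside 18.1% of all genes called higher. The 2 were Itgax (1.26 ± 0.29, adjusted p = 0.00244) and Ly6d, which epithelia also express. Ly6d went from 0.883 to 1.60 FPKM in Sham_Wt to 31.1 to 199.4 in BDL_Wt. Flt3, a defining dendritic cell receptor, stayed at 0.0119 to 0.184 FPKM in the 20 libraries. Other markers of this list were higher, such as Clec9a at 0.608 to 1.52 FPKM and Cd207 at up to 3.43. The 10 B cell markers summed to 2.49 to 4.25 FPKM in Sham_Wt and 0.945 to 1.79 in BDL_Wt, where Cd79a, a chain of the B cell receptor, was the 1 of 3 tested that was called, as lower. In that comparison 2467 of all 14059 genes were called lower. T and NK cell markers, of which 1 of 8 was tested, summed to 0.860 to 3.94 FPKM over all libraries.

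BDL_KO_2359 and BDL_KO_2248 had lower sums of every leukocyte list than the other 3 BDL_KO libraries. Their pan-leukocyte sums were 15.7 and 12.1 FPKM, against 34.9 to 56.1 in the other BDL_KO libraries and 12.6 to 19.1 in Sham_KO. Their Kupffer cell sums were 231.8 and 126.1, against 412.2 to 589.2 and, in Sham_KO, 182.6 to 231.0. Their B cell sums, 0.538 and 0.295, and T and NK cell sums, 0.906 and 0.860, were below all sham libraries, and their cholangiocyte sums, 88.6 and 68.7, were above the Sham_KO range of 32.5 to 37.2 but below the 339.4 to 567.6 of the other 3. Their sinusoidal endothelial sums, 29.2 and 38.8, were below the 52.7 to 57.55 of the other 3 and the 62.5 to 85.8 of Sham_KO. Their hepatocyte sums, 48150 and 64570, exceeded the 31800 to 35640 of the other 3. The plain FPKM ratio of H2-Ab1 to Ptprc, the gene of CD45, was 10.9 and 9.16 in these 2 libraries against 10.6 to 37.0 in the other 18, so BDL_KO_2359 was not below the others in it. The part of these marker levels in the class II values was not tested.

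**Figure D4:**
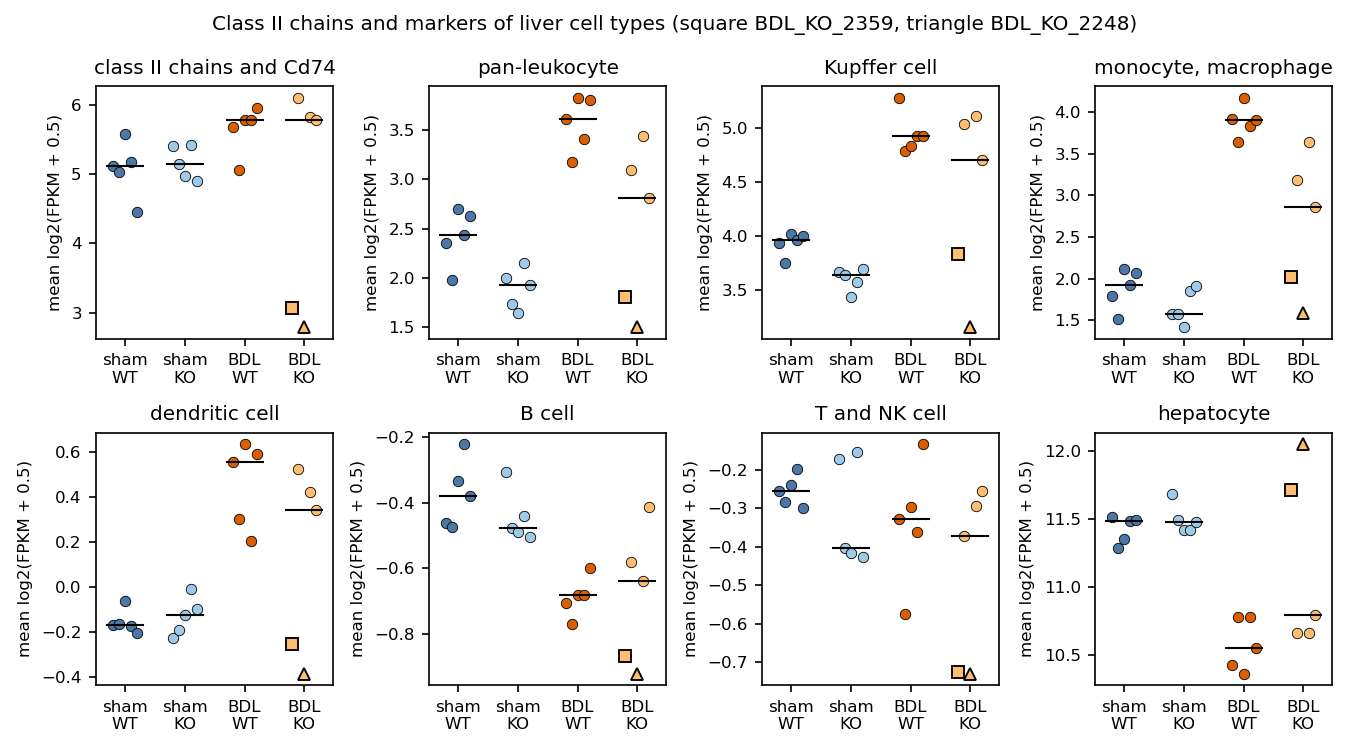
Mean log2(FPKM + 0.5) of the class II chains with Cd74 (first panel) and of 7 marker lists in each library, by group, with a line at the median of 5. BDL_KO_2359 (square) and BDL_KO_2248 (triangle) reach 3.07 and 2.79 in the first panel, below all sham libraries, while their Kupffer cell means, 3.83 and 3.15, lie in and below the sham range of 3.43 to 4.02.

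Over the 20 libraries the mean of the class II chains and Cd74 had a Pearson correlation of 0.872 with H2-DMa, 0.835 with H2-DMb1 and 0.831 with Ciita. Of all other genes, the 8 most like it were Marcks (0.901), Fam198a (0.893), Rgl1 (0.884), Klhl6 (0.880), Dse (0.876), Zmynd15 (0.874), Cln3 (0.865) and Rasal3 (0.862). By this measure alone the first 6 ran closer to it than H2-DMa did. Marcks encodes a protein kinase C substrate that binds actin, Cln3 a lysosomal membrane protein and Dse an epimerase of dermatan sulfate. Marcks measured 3.28 and 3.12 FPKM in BDL_KO_2359 and BDL_KO_2248 and at least 13.3 in the other 3 BDL_KO libraries, and the 8 likenesses fell to between 0.501 and 0.784 over the 18 libraries without these 2. Over those 18 libraries H2-DMa stood at 0.817, H2-DMb1 at 0.845 and Ciita at 0.859, above all 8. By rank (Spearman), H2-DMa, at 0.881, was above all 8, the highest of them being Klhl6 at 0.865. Only Klhl6 of the 8 stayed among the 8 most alike by rank, so the order of this list rests on the low libraries.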

How the data were processed

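Polyadenylated liver RNA was sequenced in 20 libraries, 5 per group, with groups taken from the sample titles. The authors deposited 1 table of FPKM values. In the submitters' processing notes, the tools were HISAT2 2.0.5, fastp, CASAVA 1.8, DESeq2 1.20.0 and featureCounts 1.5.0-p3 and the builds GRCm38 and mm10; their roles are not given in the sources used here. FPKM scales each library by its own total, so a few abundant transcripts can shift all others. Low values were whole multiples of 1 fragment for 98.1 to 98.6% of genes (tolerance 0.05, GENCODE M21 exon lengths). The 14059 genes reaching 0.5 FPKM in 5 or more libraries entered limma 3.58.1 (R 4.3.3) as log2(FPKM + 0.5), with 1 mean per group, moderated variances and Benjamini-Hochberg adjustment over all genes, and the script was tested on simulated data. A fold change on that scale understates low genes. Adjusted p-values throughout are from this fit unless a permutation test is named. The members and lists were chosen with earlier results of these data known. Named beside the members were up to 4 called genes per list and comparison with the largest change, and the 8 genes most correlated with the class II mean. Other named genes, such as markers and Tmem173, were chosen after their values were seen. Promoter windows are from RefSeq (GRCm38.p6): of the 7 members H2-Aa, H2-Eb1, H2-DMa and H2-DMb1 were matched, and H2-Ab1, Ciita and Cd74 were not. The entry names of March1 and March8 could not be matched, so 9 genes of the list of class II turnover and costimulation were read. A member of the interferon list is not reported here.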

Additional observations from a re-analysis of the deposited data

Results flagged for a closer look

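Cd74 in BDL_Wt_2235 was 87.4 FPKM, against 135.4 to 152.0 FPKM in the other 4 BDL_Wt libraries. Its gap to the nearest of them was 0.791 of the range of the group, above Dixon's 95% critical value for 5 samples. The 7 members in 4 groups made 28 such groups, and chance flags about 1 group in 20. The 2 low BDL_KO libraries did not meet this criterion, since each has the other beside it.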

How the results depend on the processing

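The settings tried were pseudocounts of 0.1 and 1, no filter and a filter at 1 FPKM (under which Ciita is not tested), TPM, models of only the 2 groups compared (which give no interaction), sex as a covariate, either sex alone, each library left out, and BDL_KO_2359 and BDL_KO_2248 left out. All 7 members passed the filter, so the permutation test planned for untested members was not needed. No paired analysis was possible because the groups share no replicate numbers. In wild-type ligation the count of members called, 0, became 1 with a pseudocount of 1, 2 as TPM, 4 with only the 2 groups, 0 to 2 with each library left out in turn and 6 without both low libraries. The last of these counts rests on errors that leaving out those libraries made smaller. The single libraries were BDL_Wt_2235, BDL_KO_2359, BDL_KO_2365, BDL_KO_2370 and BDL_KO_2371 (Ciita) and BDL_KO_2248 (Ciita and H2-DMa). In knockout ligation it became 0 to 1 with each library left out (H2-DMb1 without BDL_KO_2248) and 6 without both, a count made after leaving out the libraries lowest in these members and so no test of a rise. It stayed 0 in the other comparisons. Of the 30 ratios 0 passed in every setting run, a count that so few libraries per group could hardly raise.

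Without both libraries these log2 differences changed sign: in knockout ligation H2-Aa to 0.76, H2-Ab1 0.59, H2-Eb1 0.74 and Cd74 0.84, between ligated genotypes H2-Aa 0.30, H2-Ab1 0.18, H2-Eb1 0.25, H2-DMb1 0.28, Cd74 0.30 and Ciita 0.07, and for the interaction H2-Aa 0.22, H2-Ab1 0.07, H2-Eb1 0.23, H2-DMa 0.23, H2-DMb1 0.67, Cd74 0.10 and Ciita 0.14. Between sham genotypes the TPM values were -0.06 for H2-Aa, -0.03 for H2-Ab1 and -0.13 for H2-Eb1, and with Xist libraries only -0.10 for H2-Eb1 and 0.00 for Ciita. Leaving out each library moved the knockout ligation values of H2-Aa from -0.82 to 0.00, H2-Eb1 from -0.88 to 0.03 and Cd74 from -0.59 to 0.14, the sham genotype values of H2-Aa from -0.07 to 0.19, H2-Ab1 from -0.07 to 0.25 and H2-Eb1 from -0.11 to 0.14, and the interaction of H2-DMb1 from -0.50 to 0.22. None of these signs was of a called value in the fit of 20 libraries, and the cause was not tested.

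TPM moved the median of all genes by 0.266 in wild-type ligation, 0.147 in knockout ligation, -0.114 and -0.236 between sham and ligated genotypes and -0.122 in the interaction, and the share of calls that were higher from 50.8% to 81.9%, 48.8% to 75.8%, 44.0% to 10.6% and 39.2% to 6.35% in the first 4. Relative to that shift the TPM calls of H2-DMa (1.03) and Ciita (0.72) in wild-type ligation are close to the FPKM differences. Over all genes, calls in wild-type ligation went from 5011 to 3126 and 911 in Y and Xist libraries alone, and in knockout ligation from 3534 to 1694 with 2 groups and 1072 and 550 by sex. Between sham genotypes they went from 418 to 208 with no filter or TPM, 821 with 2 groups, 0 and 7 by sex and 1041 without both low libraries. Between ligated genotypes they went from 1241 to 1875 as TPM, 283 with 2 groups and 308 and 8 by sex, and for the interaction from 53 to 9 with no filter, 11 as TPM, 2 and 0 by sex and 178 without both. Depth limits Ciita, at 6 to 177 fragments.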
